A study of Arabidopsis thaliana with 9 samples.

Results

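The genes described here are 8 loci of salicylate-dependent and pathogenesis-related defence in Arabidopsis thaliana, read from the 38299 genes of the deposited table by locus: PR1 (AT2G14610), PR2 (AT3G57260, named BGL2 in the table), PR5 (AT1G75040), ICS1 (AT1G74710, also called SID2 and named EDS16 in the table), PAD4 (AT3G52430), EDS1 (AT3G48090), NPR1 (AT1G64280) and PAD3 (AT3G26830). All 8 were found, and all 8 passed the low-count filter that left 19174 genes for testing. The study sequenced RNA from sepals dissected from unopened stage 12 flower buds of 3 genotypes, namely wild-type Col-0 (WT) and the single mutants gir1-1 and atml1-3. Each genotype has 3 libraries, each made from 200 sepals pooled from 50 buds, and all plants grew at 23 °C in continuous light with no pathogen or hormone treatment named in the labels. The GIR1 product is a small adaptor protein and that of ATML1 an epidermal HD-ZIP IV transcription factor; each mutant is represented by 1 allele.

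Salicylate is the hormone of resistance to biotrophic pathogens. In leaves, ICS1 makes its precursor isochorismate in the plastid, the lipase-like proteins EDS1 and PAD4 form a complex that relays receptor signals and raises salicylate, and NPR1 binds salicylate and acts with TGA transcription factors as co-activator of the PR genes. PR1, PR2 and PR5 encode secreted proteins that serve as the usual output markers, while PAD3 encodes the cytochrome P450 of the last step to camalexin, the indolic phytoalexin.

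The 250 bases before the gene start are shown for PR2, PR5 and ICS1, which are among the members whose levels differed most between libraries of 1 genotype, from the RefSeq annotation of TAIR10.1, 5′ to 3′ on the strand of the gene. Capitals mark TTGAC, the core of the W box bound by WRKY factors, or its reverse complement GTCAA. The windows are chr3:21189968-21190217 (minus strand) for PR2, chr1:28177420-28177669 (plus strand) for PR5 and chr1:28070045-28070294 (plus strand) for ICS1.
PR2: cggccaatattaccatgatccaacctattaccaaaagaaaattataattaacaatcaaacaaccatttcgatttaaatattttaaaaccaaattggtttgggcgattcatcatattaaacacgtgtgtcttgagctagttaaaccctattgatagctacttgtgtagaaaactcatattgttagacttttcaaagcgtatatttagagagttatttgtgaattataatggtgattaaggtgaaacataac
PR5: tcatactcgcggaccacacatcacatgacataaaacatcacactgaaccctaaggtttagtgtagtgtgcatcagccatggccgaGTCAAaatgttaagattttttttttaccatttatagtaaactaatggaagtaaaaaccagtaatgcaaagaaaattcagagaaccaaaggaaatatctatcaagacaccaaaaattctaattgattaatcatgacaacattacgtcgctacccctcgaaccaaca
ICS1: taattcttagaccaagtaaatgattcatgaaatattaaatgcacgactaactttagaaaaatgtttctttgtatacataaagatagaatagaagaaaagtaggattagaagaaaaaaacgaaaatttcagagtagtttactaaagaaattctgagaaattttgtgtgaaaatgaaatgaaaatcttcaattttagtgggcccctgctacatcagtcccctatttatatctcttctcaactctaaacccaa
TTGAC was searched on both strands and occurred before the gene start in 2 of the 7 members searched: in PR5 from position -165 and in EDS1 from position -96, both on the strand opposite to the gene, counting the last base before the gene start as -1. Of 27443 protein-coding promoters of the same length, 44.9% held it. TGACG, the core bound by TGA factors, was in 0 of the 7 windows and in 18.6% of all promoters. The 2 motifs overlap where a sequence reads TTGACG. With the first 50 bases of the gene included, TTGAC was in 4 of the 7 members, against 50.5% of all promoters, and TGACG in 0, against 23.1%. A match or its absence describes the letters of this window only.

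Library totals ranged from 15328056 to 20148807 counts, so that 3 counts in a library correspond to at most 0.189 CPM, the counts relative to library size after TMM scaling. GIR1 (AT5G06270) stood at 1.49, 2.19 and 4.29 CPM in WT replicates 1, 2 and 3, and at 0.679, 0.61 and 0.344 in gir1-1. ATML1 stood at 29.9, 32.6 and 51.2 CPM in WT and at 7.8, 16.6 and 15.9 in atml1-3. Every mutant library was below every WT library for its own gene, although neither difference passed the test over all genes (log2 difference -2.28, SE 0.56, adjusted p = 0.385 for GIR1 and -1.49, SE 0.32, adjusted p = 0.365 for ATML1; edgeR's quasi-likelihood test, Benjamini-Hochberg adjusted). The same held for the gene mutated in the other line: GIR1 stood at 0.88, 0.482 and 1.01 CPM in atml1-3 (log2 difference -1.74 from WT, adjusted p = 0.372 by edgeR), with replicate 2 below 2 of the gir1-1 libraries, and ATML1 at 24, 23.9 and 16 CPM in gir1-1 (-0.83, adjusted p = 0.607 by edgeR). For both genes the ranges of the 2 mutants overlapped. In the authors' deposited table ATML1 passed in atml1-3 against WT, with a log2 value of -1.503 and an adjusted p-value of 0.002895. It did not pass there in gir1-1 against WT (-0.8351, adjusted p-value 0.3382). The 6 sepal and epidermis markers (AP1, AP2, SEP1, SEP2, PDF1 and ATML1) had counts in every group, at a summed 499.2 to 718.7 CPM. Some markers of other floral organs had counts. The petal and stamen genes AP3 and PI summed to between 23.5 and 69.9 CPM. Most of this was AP3, at 21.3 to 65.9 CPM, while PI was at 0.377 to 5.61 CPM. The 5 carpel and ovule markers summed to between 5.37 and 12.5 CPM. The tapetum and pollen list summed to between 38.2 and 170 CPM, of which A9, MS1, CYP703A2 and ACOS5 were at 0 everywhere. Whether these counts came from other organs or from sepal cells was not tested. In bulk tissue, fewer cells of a type and less RNA per cell cannot be told apart.

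One library stood apart for these genes. Gir1-1 replicate 3 had the highest level of the 9 libraries for 8 of 8 members, where 12.5% of all genes tested had their highest level in it. It was more than 2-fold above the next library for 5 of the 8, against a background of 1.37% of all genes. The excess over the next library was 36.2-fold for PR1, 10.2-fold for PAD3, 3.25-fold for PR5, 2.64-fold for ICS1 and 2.47-fold for PR2, and smaller for EDS1 (1.92-fold), PAD4 (1.36-fold) and NPR1 (1.24-fold). This library alone held 95.8% of all PR1 counts in the series and 82.7% of all PAD3 counts. Among the other 8 libraries WT replicate 1 was the highest for 6 of 8 members, against 17% of all genes; the exceptions were PAD4, highest in WT replicate 2, and PAD3, highest in atml1-3 replicate 2. The summed markers of other organs in gir1-1 replicate 3 were within the range of the other libraries: its petal and stamen sum was 46.8 CPM, its tapetum and pollen sum 58.9 CPM, its nectary sum 0.246 CPM and its sepal sum 604.6 CPM. Its carpel sum was 5.4 CPM, close to the lowest of the series. Taken singly, 19 of the 22 markers were within the range of the other 8 libraries. The exceptions were AG at 0.0491 CPM and AMS at 0.0491 CPM, below the lowest other values of 0.364 and 0.0587 CPM, and STK at 0.246 CPM against 0 counts elsewhere. The 19 include A9, MS1, CYP703A2 and ACOS5, which were at 0 in every library. They also include PDF1, SHP2, CRC, SWEET9 and CWINV4, whose lowest other value was 0, so that they could not fall below the range. By genotype, the carpel sum was 5.99 to 6.38 CPM in WT and 7.38 to 12.5 CPM in atml1-3, and the nectary sum was 0.822 to 11.7 CPM in WT and 0 to 0.305 CPM in gir1-1; the part of these tissues in the differences between genotypes was not tested. The labels give all 9 libraries the same batch. The main differences that involve gir1-1 are therefore given with and without this library, a choice made after its values were seen.

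**Figure D1:**
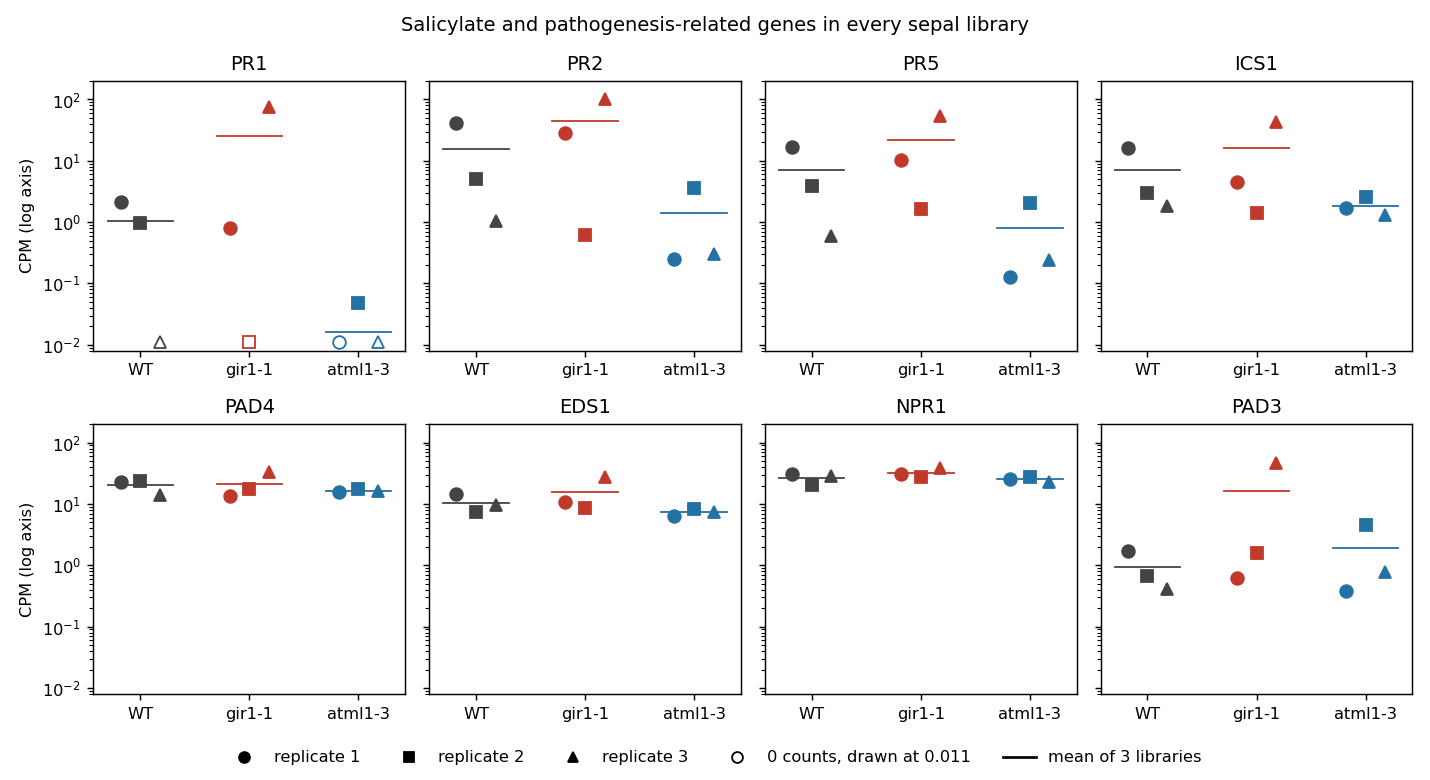
Level of each of the 8 genes in every library, in CPM on a log axis, by genotype, with symbols for replicate numbers, horizontal bars for the mean of 3 libraries and open symbols for libraries with 0 counts. Gir1-1 replicate 3 is the highest point in all 8 panels. For PR1 it is at 76.7 CPM, and the other 8 libraries lie at or below 2.12 CPM. For NPR1 it is at 38.1 CPM, and the others lie between 20.3 and 30.7 CPM.

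ICS1 (chromosome 1, 28070295 to 28074177, plus strand, 12 exons in one transcript and 13 in the other) is the isochorismate synthase that supplies most pathogen-induced salicylate. Its level was 16.4, 2.98 and 1.82 CPM in WT replicates 1, 2 and 3. In gir1-1 it was 4.47, 1.4 and 43.2 CPM, and in atml1-3 it was 1.7, 2.56 and 1.31 CPM. The high libraries were gir1-1 replicate 3 and WT replicate 1, and the remaining 7 lay between 1.31 and 4.47 CPM, so the 3 genotypes overlapped. Means were 7.05 ± 8.08 CPM for WT, 16.4 ± 23.3 CPM for gir1-1 and 1.86 ± 0.636 CPM for atml1-3 (SD, n = 3 each).

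The fitted log2 difference of ICS1 was 1.22 (SE 1.10) in gir1-1 against WT, with an adjusted p = 0.854 by edgeR's quasi-likelihood test, Benjamini-Hochberg adjusted. Without gir1-1 replicate 3 the difference was -1.26, the opposite direction. In atml1-3 against WT it was -1.92 (SE 1.17, adjusted p = 0.551 by edgeR), and without WT replicate 1 it was -0.36. The genotype difference of ICS1 was thus carried by 1 library on each side, gir1-1 replicate 3 and WT replicate 1.

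EDS1 (chromosome 3, 17755329 to 17758147, minus strand, 4 exons) had 14.5, 7.47 and 9.57 CPM in WT, 10.9, 8.54 and 27.9 CPM in gir1-1, and 6.41, 8.15 and 7.28 CPM in atml1-3. All 3 atml1-3 libraries lay below all 3 gir1-1 libraries, by a narrow margin against gir1-1 replicate 2, while both mutants overlapped WT. Means were 10.5 ± 3.63 CPM for WT, 15.8 ± 10.6 CPM for gir1-1 and 7.28 ± 0.867 CPM for atml1-3 (SD, n = 3 each). The log2 difference was 0.58 (SE 0.42, adjusted p = 0.794) in gir1-1 against WT, -0.53 (SE 0.42, adjusted p = 0.649) in atml1-3 against WT and -1.12 (SE 0.42, adjusted p = 0.652) in atml1-3 against gir1-1, by edgeR. Leaving out gir1-1 replicate 3, the first became -0.12 and the last -0.41.

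PAD4 (chromosome 3, 19431095 to 19434450, plus strand, 2 exons), the partner of EDS1, had 22.5, 24 and 14 CPM in WT, 13.7, 17.7 and 32.7 CPM in gir1-1, and 15.9, 17.3 and 16 CPM in atml1-3. The lowest and the highest value of the series were both in gir1-1, and the narrow atml1-3 range lay within that of both other genotypes. The log2 difference was 0.08 (SE 0.31, adjusted p = 0.972) in gir1-1 against WT and -0.30 (SE 0.31, adjusted p = 0.734) in atml1-3 against WT by edgeR. It was -0.36 without gir1-1 replicate 3 in the former comparison.

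NPR1 (chromosome 1, 23852748 to 23855658, minus strand, 4 exons), the salicylate receptor and co-activator, had 30.7, 20.3 and 28.5 CPM in WT, 30.6, 27.8 and 38.1 CPM in gir1-1, and 25.5, 27.4 and 22.8 CPM in atml1-3. It was the steadiest of the 8 genes, and every library lay within 20.3 to 38.1 CPM. All atml1-3 libraries were below all gir1-1 libraries, with 27.4 against 27.8 CPM as the closest pair, and both overlapped WT. The log2 difference was 0.28 (SE 0.19, adjusted p = 0.785) in gir1-1 against WT, -0.07 (SE 0.19, adjusted p = 0.911) in atml1-3 against WT and -0.35 (SE 0.19, adjusted p = 0.72) in atml1-3 against gir1-1 by edgeR. Without gir1-1 replicate 3 the first was 0.14 and the last -0.21. The sign in atml1-3 against WT turned to 0.02 with total counts as the only scaling. Its values are uncertain in one respect: 9.6% of the NPR1 exons lie under annotated genes of the opposite strand (AT1G64270 and AT1G08667), and whether the counting used strand is not given in the sources used here.

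PR1 (chromosome 2, 6241640 to 6242541, minus strand, 1 exon) had 37, 16 and 0 counts in WT replicates 1, 2 and 3, 14, 0 and 1562 counts in gir1-1, and 0, 1 and 0 counts in atml1-3. These counts are 2.12, 0.972 and 0 CPM for WT, 0.792, 0 and 76.7 CPM for gir1-1 and 0, 0.0482 and 0 CPM for atml1-3. A level of 0 counts allows at most 3 counts, or up to 0.189 CPM, and 4 of the 9 libraries were at 0, spread over all 3 genotypes. Only gir1-1 replicate 3 had PR1 above 2.12 CPM.

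For PR1 the log2 difference was 4.64 (SE 1.87) in gir1-1 against WT, with an adjusted p = 0.636 by edgeR's quasi-likelihood test. It was -1.35 when gir1-1 replicate 3 was left out. The fitted -5.34 (SE 3.41, adjusted p = 0.566) in atml1-3 against WT rests on 1 count in atml1-3 and depends on the prior count of the fit. As a ratio of summed counts relative to depth, PR1 was 55.5 times as high in WT as in atml1-3, with a 95% exact interval of 9.54 to 2234, and 1546 times as high in gir1-1 as in atml1-3, with an interval of 277 to 61088. Of the 1576 gir1-1 counts, 1562 came from gir1-1 replicate 3, and without this library the ratio of gir1-1 to atml1-3 was 21.9, with an interval of 3.34 to 927.8. These intervals cover counting error only and not the spread between libraries, which for PR1 included libraries at 0 in every genotype. By edgeR the difference of atml1-3 against gir1-1 had an adjusted p = 0.577.

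PR2 (chromosome 3, 21188397 to 21189967, minus strand, 2 exons), a secreted beta-1,3-glucanase, had 41.5, 4.98 and 1.06 CPM in WT, 28.2, 0.61 and 102.5 CPM in gir1-1, and 0.252, 3.62 and 0.298 CPM in atml1-3. The highest library exceeded the lowest 39.3-fold within WT, 168-fold within gir1-1 and 14.4-fold within atml1-3. Gir1-1 replicate 2 lay below every WT library and gir1-1 replicates 1 and 3 were among the 3 highest, so the spread within gir1-1 covered nearly the whole range of the series. The log2 difference was 1.46 (SE 1.46, adjusted p = 0.874) in gir1-1 against WT, -3.44 (SE 1.68, adjusted p = 0.46) in atml1-3 against WT and -4.90 (SE 1.75, adjusted p = 0.649) in atml1-3 against gir1-1 by edgeR. Without gir1-1 replicate 3 the first was -0.14 and the last -3.31, and without WT replicate 1 the atml1-3 difference from WT was -1.05.

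PR5 (chromosome 1, 28177670 to 28179022, plus strand, 2 exons), a thaumatin-like protein, had 16.7, 3.89 and 0.587 CPM in WT, 10.2, 1.65 and 54.4 CPM in gir1-1, and 0.126, 2.07 and 0.239 CPM in atml1-3. As for PR2, the 3 highest libraries were gir1-1 replicate 3, WT replicate 1 and gir1-1 replicate 1, and the 2 lowest were atml1-3 replicates 1 and 3. Atml1-3 replicates 1 and 3 were below every WT and every gir1-1 library for both genes, while atml1-3 replicate 2 was not. The log2 difference of PR5 was 1.64 (SE 1.27, adjusted p = 0.818) in gir1-1 against WT, -3.04 (SE 1.45, adjusted p = 0.45) in atml1-3 against WT and -4.68 (SE 1.50, adjusted p = 0.623) in atml1-3 against gir1-1 by edgeR. Without gir1-1 replicate 3 the first was -0.25 and the last -2.80, and without WT replicate 1 the atml1-3 difference from WT was -1.38.

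PAD3 (chromosome 3, 9887917 to 9889791, plus strand, 2 exons) had 1.72, 0.668 and 0.411 CPM in WT, 0.622, 1.59 and 46.6 CPM in gir1-1, and 0.377, 4.58 and 0.776 CPM in atml1-3. Its second highest library was atml1-3 replicate 2, unlike the PR genes. The remaining 7 libraries lay between 0.377 and 1.72 CPM, and all genotypes overlapped. The log2 difference was 4.12 (SE 1.53, adjusted p = 0.602) in gir1-1 against WT and 0.24 without gir1-1 replicate 3. In atml1-3 against WT it was 1.06 (SE 1.48, adjusted p = 0.813), and -0.68 without atml1-3 replicate 2, both by edgeR. In atml1-3 against gir1-1 it was -3.06 (SE 1.43, adjusted p = 0.685), and 0.81 without gir1-1 replicate 3.

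**Figure D2:**
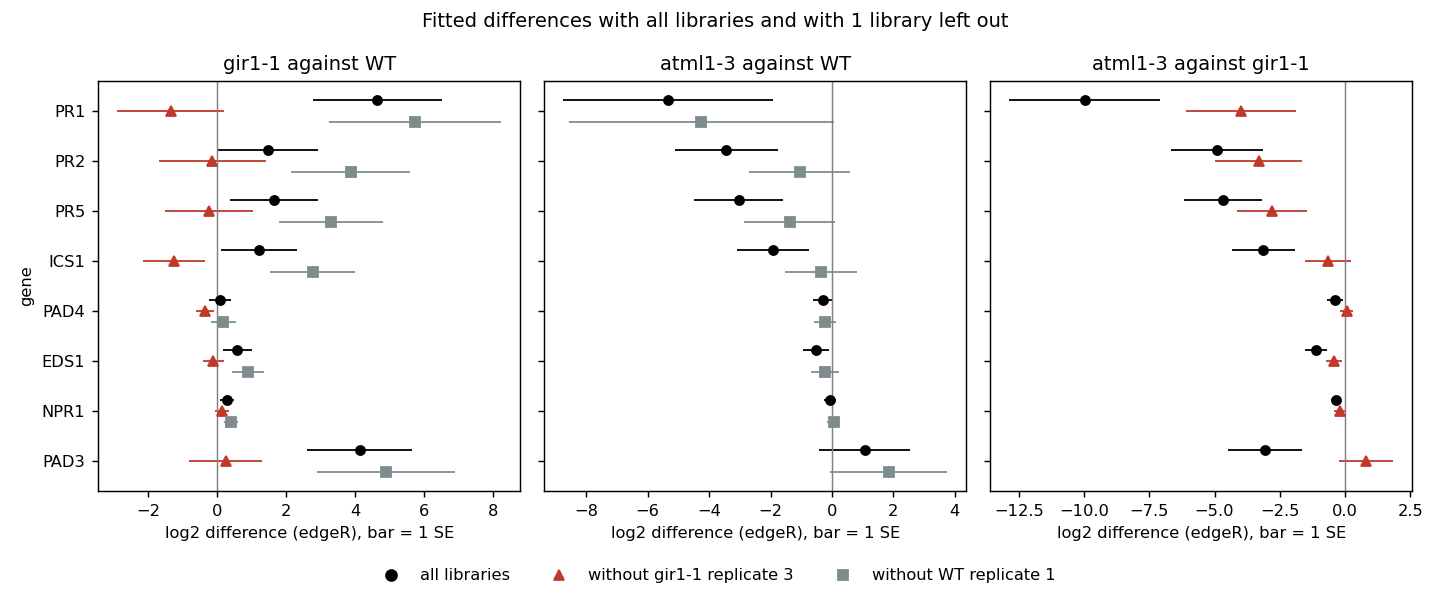
Log2 difference of each gene in the 3 comparisons of genotypes, fitted by edgeR, with bars of 1 SE, for all 9 libraries (circles), without gir1-1 replicate 3 (triangles) and without WT replicate 1 (squares). In gir1-1 against WT all 8 circles lie above 0, from 0.08 for PAD4 to 4.64 for PR1, whereas 6 of the 8 triangles lie below 0.

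Counted over the 8 genes, 0 passed an adjusted p of 0.05 in gir1-1 against WT, where 0.0156% of all genes tested did. At an unadjusted p under 0.05, 2 of 8 (PR1 and PAD3) were higher in gir1-1, beside 7.52% of all genes in either direction, and 0 of 8 had libraries that did not overlap, beside 10.5% of all genes. The median log2 difference of the 8 was 1.34, and -0.20 without gir1-1 replicate 3, beside 0.00 and -0.01 over all genes tested. Between atml1-3 and WT, 0 of 8 passed the adjusted threshold, beside 0% of all genes, and 0 of 8 had an unadjusted p under 0.05, beside 11.7% of all genes. No member had libraries that did not overlap between atml1-3 and WT, where 18.5% of all genes did. The median was -1.22, and -0.29 without WT replicate 1. In atml1-3 against gir1-1, 0 of 8 passed, beside 0.0834% of all genes, 5 of 8 were lower at an unadjusted p under 0.05, beside 7.35% of all genes in either direction, and 2 of 8 (EDS1 and NPR1) did not overlap, beside 15%. The median was -3.10, and -0.53 without gir1-1 replicate 3. The 3 comparisons share libraries, so their values are not independent of each other. Limma-voom on the same libraries also called 0 of 8 in each comparison, as did DESeq2's Wald test, which gave no adjusted p for PR1 and PAD3. A p-value that misses the threshold does not show that the genotypes have equal levels; with SEs of 1.10 to 3.41 for PR1, PR2, PR5, ICS1 and PAD3, large differences could not be told from the spread between libraries.

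In the authors' deposited table, the adjusted p-value of PR1 was 0.08896 in atml1-3 against WT and that of PR5 was 0.09991 in gir1-1 against atml1-3. In the authors' deposited table PR1 and PAD3 have no p-value for gir1-1 against WT or against atml1-3, with an adjusted value listed as 1. In the authors' deposited table the log2 fold changes of PR1 and PAD3 in gir1-1 against WT are 4.647 and 4.125.

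The spread between libraries of the same genotype placed the 8 genes in 2 sets. The residual SD of log2 CPM within genotypes was 3.07 for PR1, 2.83 for PR2, 2.18 for PR5, 2.14 for PAD3 and 1.72 for ICS1. Among the 19174 genes tested, these ranked 1, 4, 33, 38 and 121 from the most variable. The values were 0.59 for EDS1, 0.44 for PAD4 and 0.24 for NPR1, at percentiles 79.4, 67.6 and 33.7 of all genes, whose median was 0.31. Among the 1000 genes nearest in level they were at percentiles 89.8, 86.7 and 57.0, so that NPR1 lay below the median of all genes and above that of genes of like level. The outputs and the synthesis gene thus had larger SDs than the EDS1 node and the receptor. Without gir1-1 replicate 3, PR2 and PR5 kept this position, at 2.63 (rank 2) and 1.98 (rank 23). PR1 then ranked 58 (SD 1.72), PAD3 449 (SD 1.28) and ICS1 643 (SD 1.18), while EDS1 and PAD4 were at 0.34 and 0.29, at percentiles 54.8 and 46.5 of all genes. The SD within WT alone was 2.24 for PR1, 2.59 for PR2 and 2.30 for PR5, so the variation was present in wild-type sepals. Within atml1-3 the SD was 0.46 for ICS1, 0.17 for EDS1, 0.07 for PAD4, 0.13 for NPR1, 0.30 for PR1, 1.89 for PR2 and 1.71 for PR5, below the WT value for each of these genes. For PAD3 it was above it, at 1.69 against 0.92. The PR1 SD in atml1-3 comes from 0, 1 and 0 counts, where log2 CPM is set mostly by the prior count of 2. It therefore does not show a steadier level of PR1. The PR1 SDs in WT (37, 16 and 0 counts) and gir1-1 (14, 0 and 1562 counts) also depend on this prior count. The same holds for the rank of 1 of PR1.

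**Figure D3:**
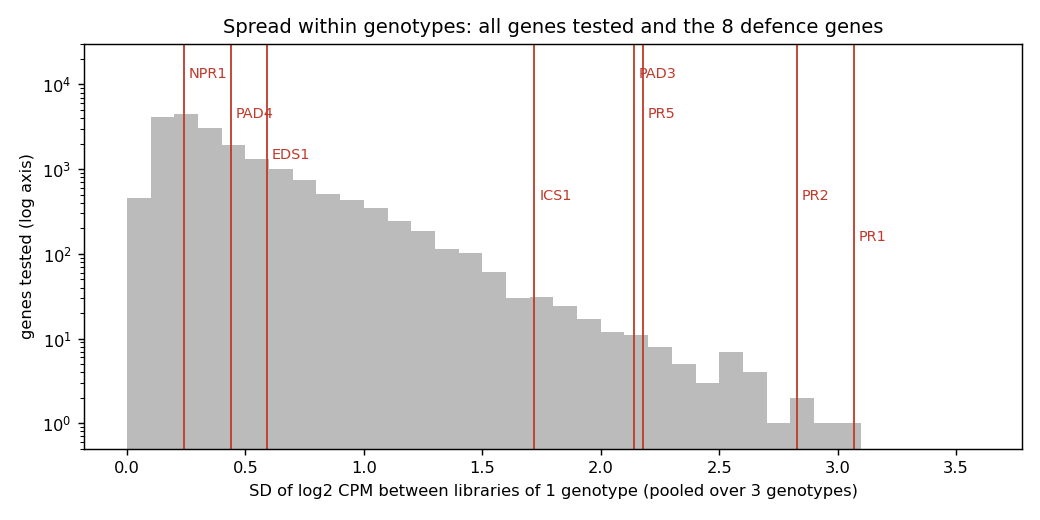
Distribution of the SD of log2 CPM between libraries of 1 genotype, pooled over the 3 genotypes, for all 19174 genes tested (grey bars, log axis of gene number), with red lines at the 8 defence genes. NPR1, PAD4 and EDS1 lie between 0.24 and 0.59 within the bulk of genes, and ICS1, PAD3, PR5, PR2 and PR1 lie between 1.72 and 3.07 in the sparse upper tail.

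Levels of different genes were compared on the deposited FPKM scale, which is per transcript length. In WT the mean level was highest for PR2 (10.7 ± 15.2 FPKM), followed by NPR1 (10.1 ± 2.11), PAD4 (8.94 ± 2.38), PR5 (6.45 ± 7.8), EDS1 (4.12 ± 1.44), ICS1 (3.24 ± 3.72), PR1 (1.14 ± 1.18) and PAD3 (0.524 ± 0.391; SD, n = 3 each). The ranges of all neighbours in this order overlapped. In gir1-1 replicate 3 the order was led by PR1 at 85.1 FPKM and PR2 at 69.4 FPKM, with NPR1 at 14.6 FPKM. In atml1-3, NPR1 and PAD4 led, at 9.58 ± 0.836 and 7.21 ± 0.305 FPKM, and PR1, PR2, PR5 and ICS1 each had a mean below 1 FPKM. The mean level of NPR1 was 12.3 ± 2.06 FPKM in gir1-1 (SD, n = 3), and the lowest NPR1 level of the 9 libraries was 7.74 FPKM, in WT replicate 2, where PR1 had 16 counts.

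The PR genes and ICS1 varied together from library to library. PR1 was correlated over the 9 libraries with ICS1 (Pearson's r = 0.95), PR5 (0.89) and PR2 (0.88), with an adjusted p = 0.000926 for each by an exact permutation test, two-sided, adjusted over 7 relations. Spearman's rho was 0.94 for each of the 3, with an adjusted permutation p = 0.00154. For EDS1 r was 0.90 (rho 0.66) and for PAD4 0.84 (rho 0.64), with adjusted exact permutation p = 0.0185 and p = 0.0228 for r, and adjusted p = 0.103 for both rho. For PAD3 and NPR1 r was 0.75 and 0.61 (rho 0.57 and 0.50), and the adjusted exact permutation p of r was 0.0909 for both.

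These relations rested on the extreme libraries to different degrees. Without WT replicate 1 and gir1-1 replicate 3, the 2 libraries farthest from the median of PR1, r with PR1 was 0.87 for ICS1, 0.84 for PR2 and 0.81 for PR5 (n = 7), each with an adjusted exact permutation p = 0.0667, so the size of r held while the threshold was missed. It was 0.38 for PAD4, 0.33 for EDS1, -0.21 for NPR1 and -0.14 for PAD3, so these 4 relations did not hold without the 2 libraries. In the 7 libraries PR1 had 16 counts in WT replicate 2, 14 in gir1-1 replicate 1, 1 in atml1-3 replicate 2 and 0 in the others. Each r with PR1 at n = 7 thus mainly sets WT replicate 2 and gir1-1 replicate 1 against libraries near the prior count. Without gir1-1 replicate 3 alone, r was 0.90 for PR2, 0.89 for ICS1 and 0.88 for PR5, each with an adjusted exact permutation p = 0.00833 (n = 8). With values centred on the genotype mean, r was 0.94 for ICS1, 0.85 for PR5 and 0.84 for PR2. The relation was thus also present with genotype means removed, but these values include gir1-1 replicate 3, and none was computed without it. Atml1-3 added little to them, since its PR1 counts were 0, 1 and 0. Since PR1 was at 0 in 4 libraries, PR2 was also taken as the reference, a choice made after seeing the data. PR2 was correlated with PR5 at r = 0.97, with ICS1 at 0.91 and with EDS1 at 0.84 (adjusted exact permutation p = 0.000215, 0.000215 and 0.00453 over 6 relations, n = 9). Without WT replicate 1 and gir1-1 replicate 3 these were 0.93, 0.97 and 0.68, with adjusted exact permutation p = 0.0119, 0.0119 and 0.206 (n = 7).

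**Figure D4:**
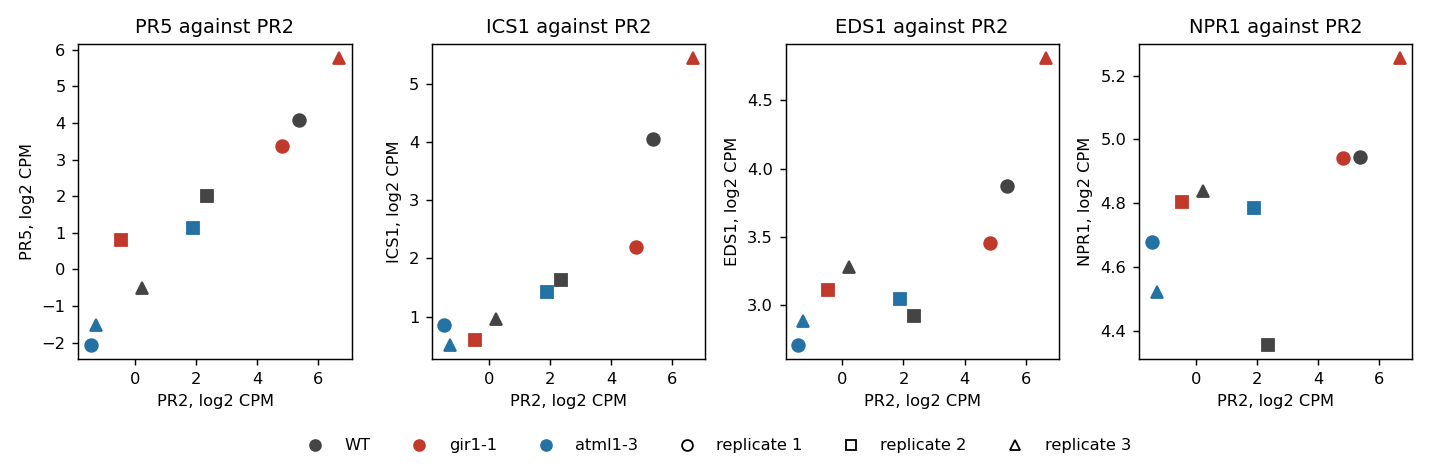
Log2 CPM of PR5, ICS1, EDS1 and NPR1 against that of PR2 in the 9 libraries, coloured by genotype with symbols for replicate numbers. PR5 follows PR2 along the whole range (r = 0.97), ICS1 and EDS1 follow it with r of 0.91 and 0.84, and NPR1 spans a narrow range (r = 0.66).

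The genes most like each member were taken from the whole table. Among 15506 genes with a mean of at least 50 counts, the 3 with the highest Pearson's r over the 9 libraries were SNAP33 (0.982), AT5G05190 (0.972) and AT1G66090 (0.966) for PR1. For PR2 they were AIB (0.978), AIG1 (0.977) and XBAT34 (0.975), for PR5 AT1G09932 (0.986), AIG1 (0.978) and MLO2 (0.977), and for ICS1 AT1G35710 (0.978), AGP5 (0.974) and AT5G05190 (0.972). For EDS1 they were GILP (0.982), NUDT7 (0.965) and AT5G52750 (0.961), and for PAD4 SOUL-1 (0.949), PBS3 (0.936) and AT1G70480 (0.927). For NPR1 they were MAP2A (0.979), STT3A (0.978) and AT1G26800 (0.956), and for PAD3 CNGC3 (0.984), FUT4 (0.973) and AT3G18250 (0.968). AIG1 was shared by PR2 and PR5, and AT5G05190 by PR1 and ICS1. All of these were selected for a high r among many genes, so the values are descriptions.

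The wider pathway was read from 10 lists with 97 genes, the 8 members among them, of which 80 were tested and 5 (AZI1, DIR1, PDF1.2B, PDF1.3 and PRB1) had no count in any library. By edgeR, 0 of the 80 passed the adjusted threshold in each of the 3 comparisons. At an unadjusted p under 0.05, 11 were higher and 1 lower in gir1-1 against WT, 4 higher and 5 lower in atml1-3 against WT, and 1 higher and 27 lower in atml1-3 against gir1-1. Over all genes the shares in either direction were the 7.52%, 11.7% and 7.35% given above, so that the 9 of 80 in atml1-3 against WT were near the background. With gir1-1 replicate 3 left out, 6 were higher and 3 lower in gir1-1 against WT, beside 4.93% of all genes, and 4 higher and 1 lower in atml1-3 against gir1-1, beside 5.6%. Limma-voom also called 0 of the 80 in each comparison, and DESeq2's Wald test called 2, both in gir1-1 against WT: VSP2, a vegetative storage protein induced by jasmonate (log2 difference 1.49, adjusted p = 0.0167), and CYP79B3, which makes indole-3-acetaldoxime (1.94, adjusted p = 0.0345). In gir1-1 replicate 3, 52 of the 80 had their highest level, beside 12.5% of all genes tested. For the list counts below, the shares over all genes tested are this 12.5%, and 1.37% for more than 2-fold above the next library.

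The salicylate-responsive targets, a list that includes PR1, PR2 and PR5, had the same high library. Of the 16 listed, 13 were tested, and 13 of 13 were highest in gir1-1 replicate 3, in which 12 were more than 2-fold above the next library. LURP1, needed for resistance to downy mildew, had 6.7, 8.5 and 3.11 CPM in WT, 10.9, 3.96 and 117.3 CPM in gir1-1, and 7.48, 10.1 and 3.82 CPM in atml1-3. WAK1, a wall-associated receptor kinase, was at 213.8 CPM in gir1-1 replicate 3 and between 20.3 and 50 CPM in the other 8 libraries. NUDT6, a nudix hydrolase, had 19.1 CPM in gir1-1 replicate 3 and at most 1.77 CPM elsewhere. The median log2 difference of the targets in gir1-1 against WT was 1.64, and -0.39 without gir1-1 replicate 3. In atml1-3 against WT it was -1.48, and -0.64 without WT replicate 1, with 0 of 13 at an unadjusted p under 0.05, beside 11.7% of all genes.

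Of the 11 genes of salicylate synthesis, 6 were highest in gir1-1 replicate 3, and EPS1 and the phenylalanine ammonia-lyases PAL1, PAL2, PAL3 and PAL4 were highest in other libraries. The 2 transcription factors that activate ICS1, SARD1 and CBP60G, had the same 2 highest libraries as ICS1. CBP60G had 12.8, 0.789 and 1.17 CPM in WT, 3.68, 1.04 and 61.4 CPM in gir1-1, and 0.817, 4.24 and 0.239 CPM in atml1-3; it lies outside the rule for named genes and was picked after its values were seen. SARD1 had 3.03, 0.486 and 0 CPM in WT, 1.13, 0.366 and 22.7 CPM in gir1-1, and 0.817, 0.434 and 0 CPM in atml1-3. ICS2, the second isochorismate synthase, differed from ICS1: it had 0.629, 0.607 and 0.646 CPM in WT and 1.58, 2.2 and 3.04 CPM in gir1-1, with no overlap between the genotypes (log2 difference 1.85, SE 0.45, unadjusted p = 0.00204, adjusted p = 0.365 by edgeR). The difference of ICS2 was 1.58 without gir1-1 replicate 3. Its atml1-3 libraries lay at 0.817, 1.01 and 1.49 CPM, above all WT libraries and below all gir1-1 libraries. Over all genes tested, 10.5% did not overlap between gir1-1 and WT, 18.5% between atml1-3 and WT and 15% between the 2 mutants. PAL3 had a log2 difference of -0.88 (SE 0.36, adjusted p = 0.636 by edgeR) in gir1-1 against WT, and -0.87 without gir1-1 replicate 3, and EPS1, which acts after PBS3, one of 0.58 (SE 0.24, adjusted p = 0.405 by edgeR) in atml1-3 against WT.

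In the EDS1 node and its helper NLRs, 7 of 11 were highest in gir1-1 replicate 3, and in gir1-1 against WT 0 of 11 had an unadjusted p under 0.05, beside 7.52% of all genes. EDS1B, the paralogue of EDS1, was at 7.51 CPM in gir1-1 replicate 3 and at most 0.801 CPM in the other libraries. NRG1A, a helper NLR, had a log2 difference of -0.33 (SE 0.17, adjusted p = 0.699 by edgeR) in gir1-1 against WT, and -0.35 without gir1-1 replicate 3. Between atml1-3 and WT, 4 of 11 were lower at an unadjusted p under 0.05, beside 11.7% of all genes in either direction, and 4 of 11 did not overlap, beside 18.5%. The former included NDR1, a membrane protein needed by several resistance receptors (-1.51, SE 0.52, adjusted p = 0.381 by edgeR), the resistance receptor SNC1 (-0.44, SE 0.15) and the helper NLR ADR1-L2 (-0.47, SE 0.17, adjusted p = 0.381 for both by edgeR). NDR1 had 5.84, 4.68 and 3.47 CPM in WT, 4.41, 1.77 and 8.99 CPM in gir1-1 and 1.7, 1.93 and 1.25 CPM in atml1-3. In the authors' deposited table NDR1 has a log2 value of -1.526 (adjusted p-value 0.02388) in atml1-3 against WT.

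Among the 13 NPR receptors, NIMIN proteins and TGA factors, 7 were highest in gir1-1 replicate 3, and the median log2 difference was 0.28 in gir1-1 against WT, as for NPR1 itself, and 0.12 without gir1-1 replicate 3. It was 0.08 in atml1-3 against WT. NIMIN1, an NPR1-interacting repressor, had 1.09, 0.486 and 0.235 CPM in WT, 2.94, 0 and 5.89 CPM in gir1-1 and 0.377, 0.627 and 0.119 CPM in atml1-3. NIMIN2 was at 10.7 CPM in gir1-1 replicate 3 and at most 2.35 CPM elsewhere. TGA3 and TGA4 had log2 differences of 0.74 (SE 0.23, adjusted p = 0.372 by edgeR) and 0.51 (SE 0.21, adjusted p = 0.406) in atml1-3 against WT. NPR3, a paralogue of NPR1 that acts as co-repressor, had one of -0.46 (SE 0.19, adjusted p = 0.411 by edgeR).

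The camalexin list was the only other list with every tested gene highest in gir1-1 replicate 3, at 7 of 7, of which 6 were more than 2-fold above the next library. CYP79B2 and CYP79B3, which begin the indole route, differed from PAD3 in that every gir1-1 library was above every WT library. Between these genotypes 10.5% of all genes tested did not overlap, in either direction. CYP79B3 had 6.35, 4.55 and 3.35 CPM in WT, 12.5, 11.3 and 30.7 CPM in gir1-1 and 8.93, 6.03 and 2.09 CPM in atml1-3. CYP79B2, its paralogue, had 3.78, 1.03 and 3.7 CPM in WT and 6.11, 9.21 and 46.1 CPM in gir1-1, again without overlap. By edgeR their log2 differences in gir1-1 against WT were 1.94 (SE 0.54, adjusted p = 0.451) for CYP79B3 and 2.85 (SE 0.93, adjusted p = 0.513) for CYP79B2, and without gir1-1 replicate 3 they were 1.33 and 1.43. In the authors' deposited table both passed, at adjusted p-values of 0.007112 and 0.01477. Both enzymes also feed indole glucosinolates. GGP1, a gamma-glutamyl peptidase shared by the 2 routes, had a log2 difference of 0.87 (SE 0.28, adjusted p = 0.515 by edgeR) in gir1-1 against WT, and 0.74 without gir1-1 replicate 3. GGP1 in the authors' deposited table has 0.8645 in gir1-1 against WT, with an adjusted p-value of 0.3988, and 0.8138 in gir1-1 against atml1-3, with an adjusted p-value of 0.008486. The median of the list in gir1-1 against WT was 2.33, and 0.24 without gir1-1 replicate 3. CYP71A12 had its second highest value, 2.99 CPM, in atml1-3 replicate 2, as PAD3 did, after 11.9 CPM in gir1-1 replicate 3.

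In the remaining lists, 1 to 4 tested genes were highest in gir1-1 replicate 3, beside 12.5% of all genes tested. A count of 1 in so short a list is near this share. Of the 5 tested genes of salicylate modification, 1 was highest in gir1-1 replicate 3, and the methyltransferase BSMT1 had a log2 difference of 1.35 (SE 0.45, adjusted p = 0.379 by edgeR) in atml1-3 against WT, where the authors' deposited table has 1.34 with an adjusted p-value of 0.00621. Of the 5 tested jasmonate and ethylene markers, 3 were highest in gir1-1 replicate 3. Among them PR4, at 39.2 CPM there, was more than 2-fold above the next library (6.47 CPM in WT replicate 1). VSP2 had a log2 difference of 1.49 (SE 0.39, adjusted p = 0.436 by edgeR) in gir1-1 against WT, and 1.33 without gir1-1 replicate 3. Its paralogue VSP1 had an adjusted p = 0.512 by edgeR, and a log2 difference of 1.04 without that library. In 2 of the 5 genes gir1-1 and WT did not overlap, beside 10.5% of all genes. VSP2 had 358, 863.6 and 949.6 CPM in WT and 1597, 2032 and 2458 CPM in gir1-1. In the authors' deposited table it passed in gir1-1 against WT, at an adjusted p-value of 0.01174. The 8 pattern-triggered immunity genes, 4 of them highest in gir1-1 replicate 3, had medians of -0.07 in gir1-1 against WT (-0.37 without this library) and -0.35 in atml1-3 against WT. In gir1-1 replicate 3, 2 of the 8 were more than 2-fold above the next library, beside 1.37% of all genes tested. FRK1 was at 6.38 CPM and NHL10 at 16.1 CPM there, and WT replicate 1 was next, at 1.32 and 2.8 CPM. Their log2 differences in gir1-1 against WT were 2.32 (SE 1.39, adjusted p = 0.76) and 2.31 (SE 1.64, adjusted p = 0.793) by edgeR. Without gir1-1 replicate 3 they were -0.15 and -2.08. The 5 senescence genes had medians of 0.32 in gir1-1 against WT (0.10 without gir1-1 replicate 3) and 0.20 in atml1-3 against WT. Of these 5, 3 were highest in gir1-1 replicate 3 and 0 were more than 2-fold above the next library. SAG29 had 0.343, 1.15 and 3.23 CPM in WT and 12.5, 10.3 and 4 CPM in atml1-3, without overlap, as in 18.5% of all genes tested. Its log2 difference was 2.49 (SE 1.27, adjusted p = 0.477 by edgeR). The authors' deposited table has 2.492 for SAG29, with an adjusted p-value of 0.0179. Of 6 genes of pipecolate synthesis and systemic resistance, 2 were tested, and ALD1, which begins pipecolate synthesis, had a log2 difference of 2.18 (SE 1.09, adjusted p = 0.701 by edgeR) in gir1-1 against WT, and 0.15 without gir1-1 replicate 3.

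**Figure D5:**
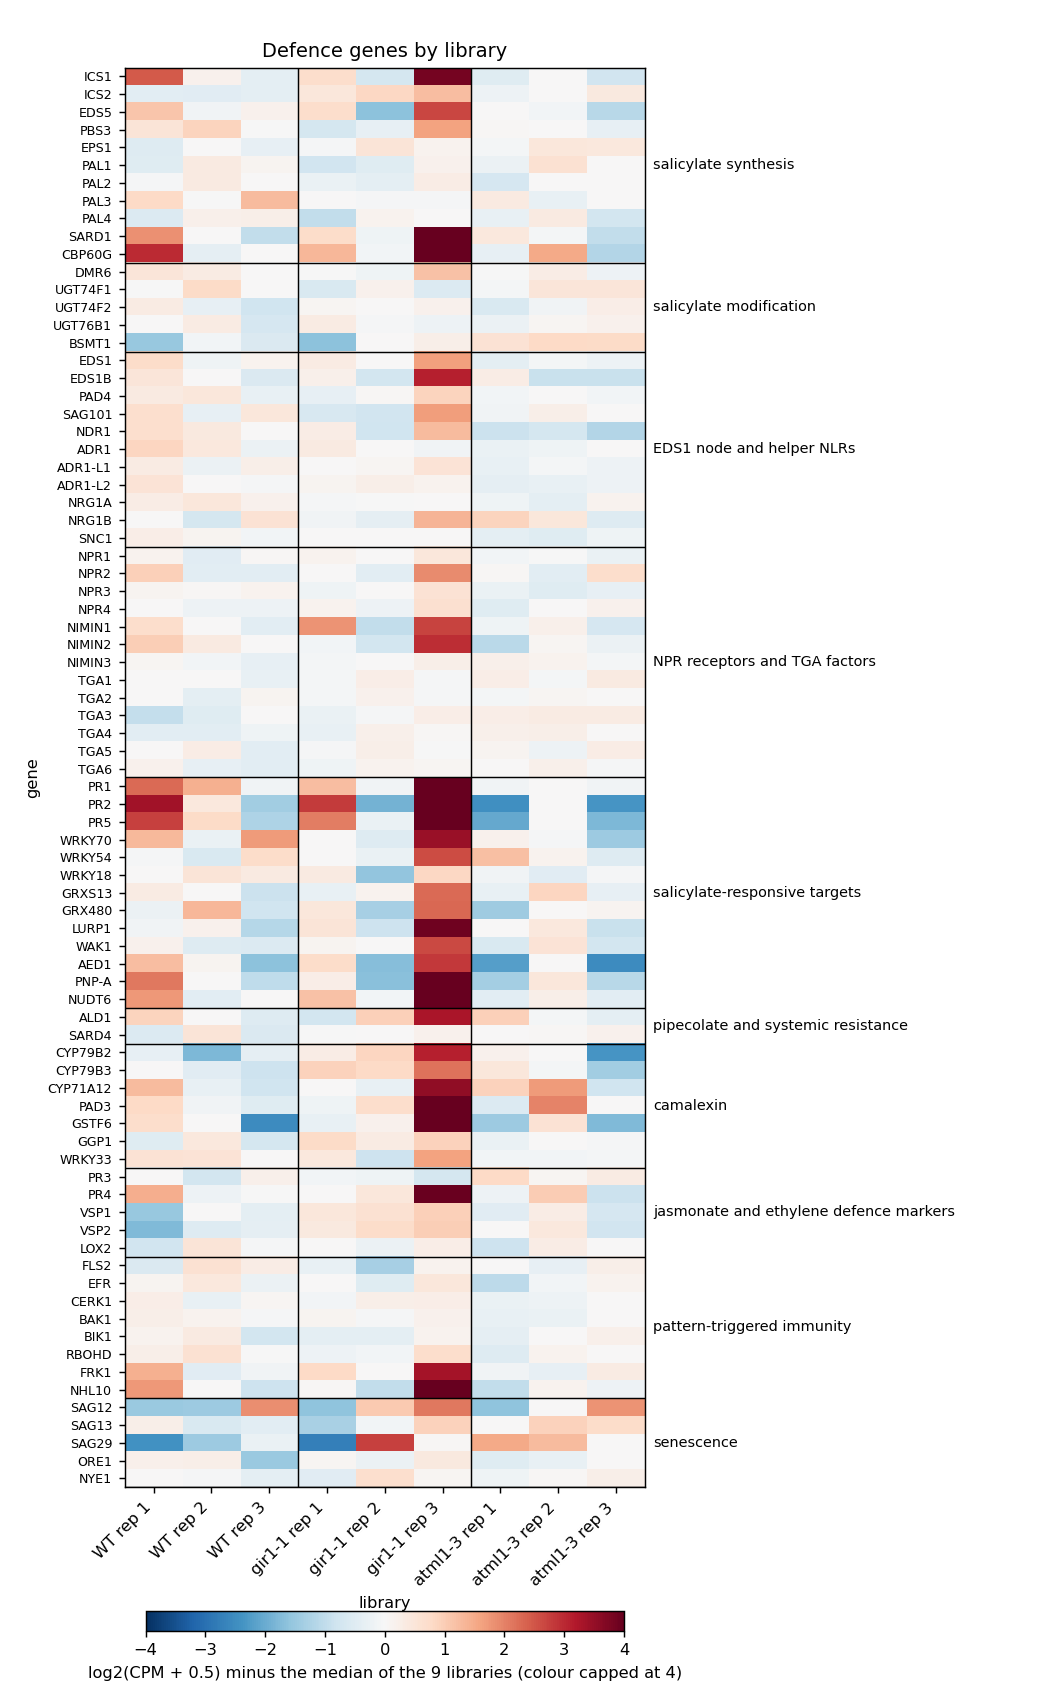
Log2(CPM + 0.5) of each of the 80 tested pathway genes minus its median over the 9 libraries, by list, with libraries as columns and colours capped at 4. The column of gir1-1 replicate 3 holds the highest value for 52 of the 80 genes, including 13 of 13 salicylate-responsive targets and 7 of 7 camalexin genes. Of all genes tested, 12.5% were highest in this library.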

How the data were processed

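RNA-seq counts per gene in 9 sepal libraries were used as deposited by the authors, per the file headers, together with the authors' FPKM values and their log2 fold changes and p-values with adjusted p-values. The build is TAIR10 per the submitters' processing notes; the aligner, counting program and use of strand are not given in the sources used here. In 38286 genes matched to RefSeq's TAIR10.1 annotation, 100.0% had equal starts and ends, and promoter windows were read from that genome. The promoter window of 1 member is not reported here.

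Counts were tested with edgeR 4.0.16 (quasi-likelihood F test, TMM, filterByExpr, R 4.3.3) in one fit of all 9 libraries with genotype as the factor, and adjusted by the Benjamini-Hochberg method over 19174 genes at 0.05. The biological coefficient of variation was 0.30. CPM are TMM-scaled; log2 CPM used a prior count of 2. SE is the log2 difference over the square root of F. The fit was also run on counts simulated from the fitted dispersions. No library was set apart in that simulation, so it does not cover the effect of gir1-1 replicate 3. Correlation p-values are exact over all pairings, two-sided as in scipy 1.17.1 (2 times the smaller tail). Alternatives were DESeq2 1.42.0, limma-voom (limma 3.58.1), other scalings, no filter, 2-genotype fits, a replicate block and leaving out each library.

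Groups and replicate numbers come from the titles, which do not say that libraries come from separate plantings, so p-values measure only the spread between these libraries. Within a genotype chi-square per degree of freedom was 26.31 to 63.23, so its libraries differed by more than counting error. Each library was counted as 1 replicate, although this does not show that they came from separate groups of plants. The members and lists were chosen with earlier results of these data known. Named genes were taken from the 8 members, the 3 genes of each list with the smallest p in each comparison, and the 3 genes most like each member. Not all of these list genes are named. A pathway gene from outside them whose levels are given is stated as chosen afterwards.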

Additional observations from a re-analysis of the deposited data

How the results depend on the processing

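The number of genes called over the whole table depended on the settings. In gir1-1 against WT it was 3 by edgeR, 15 with no low-count filter, 149 by DESeq2, 6 by limma-voom and 0 to 6 with 1 library left out. In atml1-3 against WT it was 0 by edgeR, beside 2246 at an unadjusted p under 0.05, 1 with no filter, 160 by DESeq2 and 0 to 5 with 1 library left out. In atml1-3 against gir1-1 it was 16, 59 with no filter, 42 with only the genotypes compared, 149 by DESeq2 and 1 to 7 with 1 library left out. Pathway genes called in gir1-1 against WT were 0 by edgeR and 2 by DESeq2. The cause of these shifts was not tested.

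Libraries with equal replicate numbers deviated together no more than others (correlation -0.17 to 0.12 in 9 pairs, -0.26 to 0.20 in 18 other pairs), so the numbers give no pairing; with a replicate block 1 gene was called in gir1-1 against WT and 20 in atml1-3 against gir1-1.

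Of 310 recomputed values of the 8 genes, 0 passed the threshold (adjusted p 0.169 to 0.999, and 6 had none), and 12 turned direction, 8 of them without gir1-1 replicate 3. With 1 library left out, the log2 difference in gir1-1 against WT ranged from -1.35 to 5.73 for PR1, -0.14 to 3.86 for PR2, -0.25 to 3.30 for PR5, -1.26 to 2.77 for ICS1, -0.36 to 0.33 for PAD4 and -0.12 to 0.89 for EDS1. In atml1-3 against WT it ranged from -0.23 to 0.05 for NPR1 and -0.68 to 1.85 for PAD3, and in atml1-3 against gir1-1 from -0.63 to 0.06 for PAD4 and -4.80 to 0.81 for PAD3. NPR1 in atml1-3 against WT was 0.02 with total counts only. PR1 fell under the filter, and has no value, in the fits of atml1-3 with 1 other genotype only.

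The correlation of PR1 without the 2 extreme libraries was 0.84 with PR2, 0.81 with PR5, 0.87 with ICS1, 0.38 with PAD4, 0.33 with EDS1, -0.21 with NPR1 and -0.14 with PAD3. Without only gir1-1 replicate 3, an alternative chosen after seeing the data, it was 0.58 with PAD4 and 0.66 with EDS1. Centred on genotype means, that with PAD3 was 0.79. The values without the 2 extreme libraries rest mainly on PR1 counts of 16 in WT replicate 2 and 14 in gir1-1 replicate 1.

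Depth limits PR1: 1 count separates atml1-3 from 0.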
